A study of Mus musculus with 15 samples.

Results

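The miRNAs described here are the mouse entries numbered miR-6896 to miR-7094, a run of names that holds mostly mirtron-like miRNAs, in small RNA sequencing of microglia sorted from the brain. An entry was taken as a member if its name had a number in that range and if 10 or more unique molecular identifiers (UMIs, the tags that mark single captured RNA molecules) were counted in at least 8 of the 15 libraries. In total, 258 of the 387 entries in the range were members, out of 1994 entries in the miRNA and piRNA table, of which 1834 were miRNAs and 160 piRNAs. Members were thus selected on their UMI counts. The rule used detection over all libraries without regard to their group, so detection, levels and shares are given below as a description, and only the contrasts between groups were tested.

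The 3 groups held 5 libraries each. TG Me-X04+ microglia and TG Me-X04− microglia came from 5xFAD transgenic mice labelled as 6 months old, and WT microglia from wild-type mice of the same line labelled as 2 months old and as Me-X04 negative; the methods of the study describe the ages differently. 5xFAD mice are a transgenic model of Alzheimer's disease whose transgenes are expressed under the neuronal Thy1 promoter, and they deposit amyloid-β early. All mice, the WT ones included, had received Methoxy-X04, a brain-permeable dye that binds amyloid, before the cells were sorted as CD11b+ and CD45+. The Me-X04+ cells were those carrying the dye, so the comparison with Me-X04− cells of the same mice asks what differs in microglia that have taken up amyloid. Genotype and labelled age cannot be told apart in comparisons with WT. The labels assign the TG libraries of 1 replicate number, Me-X04+ and Me-X04−, to the same mouse.

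A canonical miRNA is cut from its primary transcript as a hairpin by the nuclear Microprocessor (Drosha with DGCR8), and Dicer then cuts the hairpin into a duplex with a 5p and a 3p strand. A mirtron instead is a short intron that folds into a hairpin once the spliceosome has released it, so that splice sites rather than Drosha set one or both of its ends. In a tailed mirtron the hairpin abuts one splice site only, and the rest of the intron is trimmed away by exonucleases. In mammals the 5p strand of a mirtron is typically rich in G, and the 3p strand is pyrimidine-rich and ends with the AG of the 3′ splice site.

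This layout was read from the hairpins of 3 members, printed 5′ to 3′ with the splice-site dinucleotides that bound the intron in capitals (RefSeq, GRCm38.p6, the build of all positions given here). They were chosen because 1 is a whole intron and the other 2 hold miRNAs that differed between groups. The hairpin of miR-7080 lies at chr8:123130106-123130172 on the plus strand and was the complete intron of 67 bases in Cpne7, which encodes a copine, a calcium-dependent phospholipid-binding protein. Another transcript in the gene models holds this hairpin within an exon. The hairpin of miR-7083 lies at chr9:21809941-21810000 on the minus strand, in the last 60 bases of an intron of 1833 bases of Dock6. The hairpin of miR-7063 lies at chr7:141620701-141620791 on the plus strand, in the last 91 bases of an intron of 222 bases of Ap2a2, a subunit of the clathrin adaptor AP-2.
miR-7080: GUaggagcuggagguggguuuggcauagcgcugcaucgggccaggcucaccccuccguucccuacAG
miR-7083: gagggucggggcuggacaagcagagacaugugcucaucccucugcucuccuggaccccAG
miR-7063: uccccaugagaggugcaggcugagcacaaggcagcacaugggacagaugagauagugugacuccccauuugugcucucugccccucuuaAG

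The positions of the hairpins describe the run of names and are no test that its entries are mirtrons. Over all 177 hairpins of the range that were matched in RefSeq, members or not, 92.7% ended within 3 bases of a 3′ splice site. Of the 180 hairpins that gave a member, 161 were matched in RefSeq and set against the GENCODE vM21 gene models of the same build. Of these, 155 lay in an intron in the sense direction and 6 across an exon boundary. A hairpin counted as intronic if any transcript placed it in an intron. Some of these hairpins, miR-7080, miR-7037 and miR-6990 among them, also lay within an exon of another transcript. Distances to splice sites were measured only for hairpins in an intron, and the others were counted as away from them. The 3′ end of 150 hairpins (93.2%) fell within 3 bases of the 3′ splice site, against 38 of 828 (4.6%) of the hairpins with names outside the range. Only 15 started within 3 bases of the 5′ splice site, and 11 filled their intron from end to end, so that tailed hairpins made up most of the group. The matched hairpins had a median length of 66 bases (52 to 137) and their introns a median of 479 bases, whereas the other hairpins had a median length of 82 bases and, where intronic, introns with a median of 5634 bases.

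Mature sequences were matched for 227 members (153 of the 5p and 74 of the 3p arm). The 5p members had a median of 45.5% G, and 59 of them (38.6%) held the run GGGG, which was found in 8.9% of the mature sequences outside the range. The 3p members had a median of 72.7% C and U, and 54 of 74 (73.0%) ended in AG, against 9.2% of the mature sequences outside the range. Entries of the range that missed the detection rule looked alike, with GGGG in 34.8% of the 5p and a final AG in 81.1% of the 3p sequences.

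The seed, bases 2 to 8 of a miRNA, carries most of its pairing with target mRNAs and is in capitals below. The first 5 sequences are members that differed between groups, and the next 2 are the most abundant member of each arm.
miR-7037-5p: aAGGUGGCcacaggagaucauggu
miR-7083-5p: uCGGGGCUggacaagcagaga
miR-7063-3p: uGCUCUCUgccccucuuaag
miR-7015-5p: uCUGUGCAguaggcuguggguuc
miR-7015-3p: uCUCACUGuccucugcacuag
miR-7051-5p: uCACCAGGaggaaguuggguca
miR-7069-3p: cCUGCCCUgccaaccccuaca
The 227 sequences had 209 different seeds. In all, 16 seeds were shared by 2 or more members, which took in 34 members, and 29 members shared a seed with a detected miRNA outside the range. For instance, miR-7069-3p had the seed of miR-18a-3p and miR-6921-5p that of miR-423-5p. The 2 seeds held by 3 members each were both rich in G, as the next 6 sequences show.
miR-7030-5p: uGGGGAGGuggcugugcuaguc
miR-7075-5p: cGGGGAGGaggacaugguuuu
miR-7076-5p: aGGGGAGGugguauggucuca
miR-6922-5p: uGUGGGAGgggacuguagagagg
miR-6993-5p: aGUGGGAGaaacgggugucuguc
miR-7008-5p: uGUGGGAGaugccaggagccguac

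Libraries had 21429882 to 26434297 reads. The table lists no value between 1 and 9 UMIs, so that a 0 stands for anything from 0 to 9 UMIs. The miRNA and piRNA UMIs summed to 240027–372998 in TG Me-X04+ cells, 405351–682553 in TG Me-X04− cells and 424536–1192832 in WT libraries. Replicate 3 of TG Me-X04+ stood apart, with 48.7% of reads too short to use and the highest scaling factor of trimmed mean of M-values (TMM) normalisation, 2.92, against 0.56 to 1.95 in the other 14 libraries. The myeloid markers were miR-223-3p, miR-142a-3p, miR-142a-5p and miR-146a-5p, of which none was at 0 in every library. Together they took 5.92–7.35% of UMIs in TG Me-X04+ cells, 10.4–11.6% in TG Me-X04− cells and 8.88–11.9% in WT libraries. Most of this was miR-146a-5p, with 4.43–5.73% in TG Me-X04+ cells, 8.24–9.44% in TG Me-X04− cells and 6.68–9.45% in WT libraries. miR-142a-3p was also lower in every TG Me-X04+ library than in all others, whereas miR-223-3p and miR-142a-5p overlapped. The other lists were small, with 0.036–0.064% for 3 oligodendrocyte markers in TG Me-X04+ cells, 0.020–0.041% in TG Me-X04− cells and 0.028–0.037% in WT libraries, and 0.065–0.113% for 3 neuron markers in TG Me-X04+ cells, 0.064–0.099% in TG Me-X04− cells and 0.062–0.145% in WT libraries. 1 marker of each list was higher in every TG Me-X04+ library than in all others. miR-219a-5p of oligodendrocytes took 0.0136–0.0412% in TG Me-X04+ cells, 0.00571–0.0102% in TG Me-X04− cells and 0.00377–0.00796% in WT libraries, and miR-138-5p of neurons took 0.0115–0.0419% in TG Me-X04+ cells, 0.00294–0.00814% in TG Me-X04− cells and 0.00267–0.00754% in WT libraries. The remaining 2 markers of each list overlapped, among them miR-338-3p of oligodendrocytes with 0.0102–0.0198% in TG Me-X04+ cells, 0.00997–0.0256% in TG Me-X04− cells and 0.0175–0.0223% in WT libraries. Both endothelium and both erythroid markers overlapped, and these lists stayed at or below 0.029% and 0.028% in every library. No marker was at 0 throughout. The part in the results below of the markers that moved with the groups was not tested. As these are bulk libraries, fewer cells of a type and less RNA per cell cannot be told apart.

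The 5p arm was seen far more often than the 3p arm. Of the 200 5p entries in the range, 173 (86.5%) were members, against 85 of 187 3p entries (45.5%). Both arms were members for 78 hairpins, only the 5p arm for 95 and only the 3p arm for 7. All 15 libraries held 10 or more UMIs of 73 5p and 28 3p members. With the rule set at 5 libraries the members would have been 187 of the 5p and 119 of the 3p arm, and at 9 libraries 164 and 72.

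**Figure D1:**
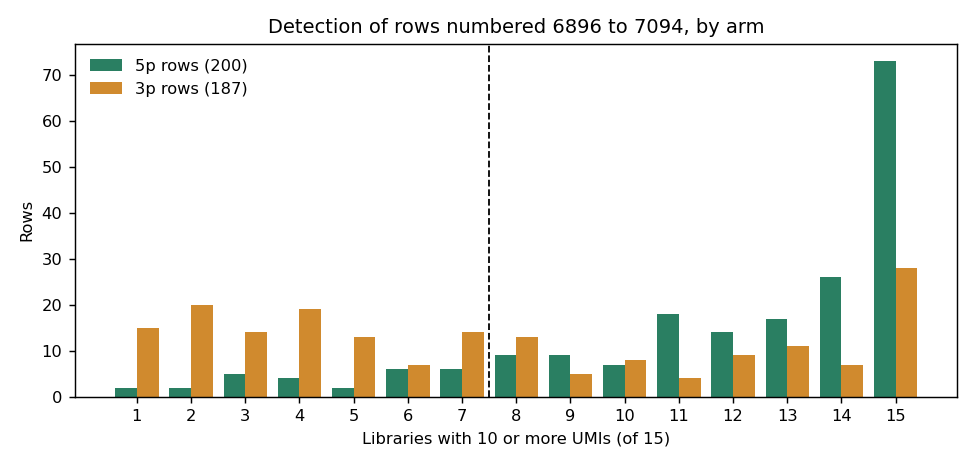
Number of entries numbered miR-6896 to miR-7094 (rows of the table, vertical axis) by the number of libraries with 10 or more UMIs (horizontal axis), for the 5p and the 3p arm, with the dashed line at the lower edge of the rule. The 5p arm had 73 entries in all 15 libraries and the 3p arm 28, while the 3p arm had more entries than the 5p arm in each of the bins from 1 to 8 libraries.

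The threshold passed through a continuous range of values. Just inside it, in exactly 8 libraries, were 9 5p and 13 3p entries, of which miR-6946-5p (160 UMIs over all libraries), miR-7043-5p (156), miR-7049-3p (148), miR-6924-3p (148), miR-6999-3p (145) and miR-7091-3p (140) had the highest totals. Just outside, in exactly 7 libraries, were 6 5p and 14 3p entries, led by miR-7042-3p (126), miR-7016-3p (126), miR-6961-3p (118), miR-7088-3p (112), miR-7044-5p (110) and miR-6921-3p (110). The median value of a detected entry was 13.5 UMIs inside and 14 UMIs outside. Entries just inside were detected in 74 libraries of TG Me-X04+, 57 of TG Me-X04− and 45 of WT microglia, summed over entries, and those just outside in 59, 42 and 39.

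Member levels were low throughout. Of the 3870 member values, 14.4% were listed at 0, 37.5% were 10 to 19 UMIs and 48.0% were 20 or more, with a highest value of 374 UMIs. The median total over the libraries was 307 UMIs for the 5p members (93 to 1673) and 254 UMIs for the 3p members (97 to 2429). Other miRNAs with numbers of 5000 or more that met the same detection rule, 152 entries, had a similar share at 0 (14.6%). Reads per UMI, a second readout of the same libraries, ran from 6.36 to 16.4 for the members. In replicate 3 of TG Me-X04+ the median was 8.17 reads per UMI for the members and 8.26 for other miRNAs of the same UMI level, and in replicate 2 of WT 16.8 and 16.1.

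The arms of 1 hairpin were compared only where both met the detection rule. This left out the 95 hairpins with only a 5p and the 7 with only a 3p member. Among the 78 hairpins with both arms among the members, the 5p arm had the higher total in 50 and the 3p arm in 28, with a median 5p share of 57.0%, and 29 hairpins lay between 40% and 60%. The 5p arm was the higher one in all 15 libraries for 10 hairpins and the 3p arm for 4. The most uneven to the 5p side was miR-6915, from Ankrd52, with 982 UMIs of the 5p and 97 UMIs of the 3p arm (91.0% 5p), followed by miR-6973b with 878 and 144 (85.9% 5p) and miR-7024 with 613 and 114 (84.3% 5p). The most uneven to the 3p side was miR-7069 with 147 UMIs of the 5p and 2429 of the 3p arm (5.7% 5p), followed by miR-6973a with 104 and 621 (14.3% 5p) and miR-7050 with 138 and 578 (19.3% 5p). The hairpin of Ap2a2 shown above, miR-7063, had 157 and 460 (25.4% 5p).

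**Figure D2:**
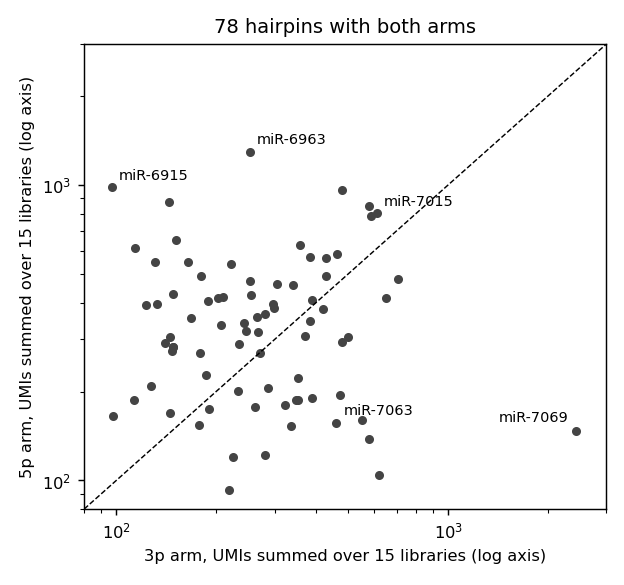
Total UMIs of the 5p arm (vertical log axis) against those of the 3p arm (horizontal log axis) over the 15 libraries, each point being 1 of the 78 hairpins with both arms among the members and the dashed line marking equal totals. The 5p arm was higher in 50 hairpins, and miR-7069 lies farthest to the 3p side with 147 UMIs of the 5p and 2429 of the 3p arm.

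Members took a larger part of the UMIs in the amyloid-carrying cells. Their sum was 4696, 5233, 13342, 7607 and 8650 UMIs in TG Me-X04+ cells, 3582, 7906, 7045, 4830 and 4853 in TG Me-X04− cells and 3590, 2895, 4916, 6103 and 8790 in WT libraries. As a share of all miRNA and piRNA UMIs this was 2.80% ± 1.26 in TG Me-X04+ cells, 1.06% ± 0.433 in TG Me-X04− cells and 0.809% ± 0.155 in WT (SD, n = 5 each). Each of the TG Me-X04+ libraries (1.82% to 4.90%) lay above each of the TG Me-X04− (0.586% to 1.74%) and WT (0.682% to 1.07%) libraries. Without replicate 3 of TG Me-X04+ the highest of that group was 2.99%, and the groups still did not overlap. The same held for the entries most like the members. The late-numbered miRNAs took 1.11–2.88% of UMIs in TG Me-X04+ cells, 0.381–1.07% in TG Me-X04− cells and 0.417–0.645% in WT libraries, and long-known mirtrons 0.049–0.120% in TG Me-X04+ cells, 0.022–0.044% in TG Me-X04− cells and 0.018–0.035% in WT libraries. Reads too short to use were 32.7–48.7% in TG Me-X04+ cells, 21.6–38.6% in TG Me-X04− cells and 25.4–40.6% in WT libraries, and their part in the share was not tested. A share also depends on the other entries of the table. Set against 696 other miRNAs within the members' own range of levels, the members had 40.1–42.7% as many UMIs in TG Me-X04+ cells, 32.7–40.8% in TG Me-X04− cells and 31.9–37.1% in WT libraries, and the 152 late-numbered miRNAs 24.1–25.8%, 21.3–25.2% and 19.5–22.7%. The 5p share of the member UMIs was 72.7% ± 1.52, 71.7% ± 1.18 and 71.3% ± 0.872 in TG Me-X04+, TG Me-X04− and WT cells, in that order, and their ranges overlapped.

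**Figure D3:**
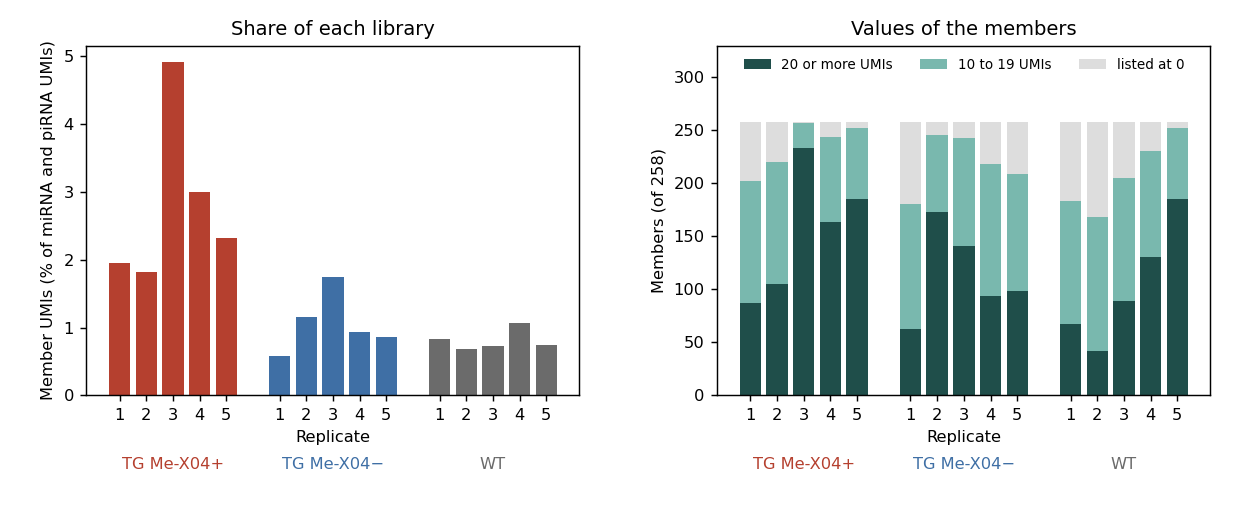
Left, member UMIs of each library (bars) as a percentage of all miRNA and piRNA UMIs, by group. Right, number of the 258 members at 20 or more UMIs, at 10 to 19 UMIs and listed at 0 in each library; TG Me-X04+ libraries lie at 1.82% to 4.90% on the left, above those of TG Me-X04− and WT, and replicate 3 of TG Me-X04+ is the highest.

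Detection followed the same order. Of member values, 8.9% were at 0 in TG Me-X04+ cells, 15% in TG Me-X04− cells and 19.5% in WT libraries, although the TG Me-X04+ libraries had the fewest UMIs. TG Me-X04− libraries held more 0s than TG Me-X04+ libraries for 72 members, the opposite for 19, and equal numbers for 167. Likewise, 103 members had more 0s in WT than in TG Me-X04+ cells and 23 had fewer. Such counts were not made for other entries, so the pattern cannot be called particular to the members. Over the whole miRNA and piRNA table, libraries had 1148–1771 entries with 10 or more UMIs in TG Me-X04+ cells. In TG Me-X04− and WT libraries these were 1107–1566 and 1024–1752. When every library was scaled down to the smallest total, 113 entries still met the rule (84 of the 5p and 29 of the 3p arm).

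The number of libraries at 0 differed between groups by 4 in 4 members and by 3 in 17. This was not counted for other entries, so the values below are a description. The miR-7075-5p values were 10, 16, 23, 18 and 10 UMIs in TG Me-X04+ cells, 0, 0, 17, 0 and 0 in TG Me-X04− cells and 0, 13, 11, 0 and 13 in WT libraries. Those of miR-7046-3p were 14, 10, 29, 16 and 13 UMIs in TG Me-X04+ cells, 0, 0, 11, 0 and 0 in TG Me-X04− cells and 0, 0, 0, 20 and 10 in WT libraries. For miR-7001-3p, from an intron of the tetraspanin gene Cd82, all TG Me-X04+ libraries had 12 to 15 UMIs, and 2 TG Me-X04− and 4 WT libraries were listed at 0. In each of these 3 members, TG Me-X04+ had no 0 but its values overlapped with those of the libraries listed above 0 elsewhere. Of the 17, the pair with the highest total UMIs was miR-7020-5p and miR-6906-5p. miR-7020-5p had 14 to 29 UMIs in TG Me-X04+ cells, with 1 TG Me-X04− and 3 WT libraries at 0. miR-6906-5p went the other way for WT, with 1 library of TG Me-X04+ cells and 3 of TG Me-X04− cells at 0 and all WT libraries at 11 to 35 UMIs. The remaining one of the 4, miR-6939-5p, is described with the comparison of TG Me-X04+ and WT.

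In TG Me-X04+ against TG Me-X04− microglia, 4 members were higher and 1 was lower. The rising ones were miR-6917-5p, miR-7037-5p, miR-7083-5p and miR-7063-3p, and the falling one miR-7015-3p. A member was called changed at an adjusted p under 0.05 in edgeR's quasi-likelihood test with TMM normalisation and Benjamini-Hochberg adjustment over all entries tested, together with a log2 fold change of at least 0.7 in either direction. Among all 1435 entries tested, 1.39% were higher and 8.57% were lower (9.97% in either direction), and the share of members called higher (4 of the 256 tested) was near this background. The filter on low counts left out miR-7024-3p and miR-7032-5p, which had 114 and 93 UMIs over all libraries. The median log2 fold change was 0.30 for the members tested and 0.17 for all entries, and 0.25 for 157 late-numbered miRNAs, here those that passed the same filter, whatever their detection. In all, 202 of 256 members (78.9%) and 927 of 1435 entries (64.6%) were above 0. It was 0.30 for the 5p and 0.31 for the 3p members. At an unadjusted p under 0.05 there were 22 members (8.59%), 21 of them higher (8.20%), against 245 of all entries (17.1%), 79 of them higher (5.51%).

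miR-6917-5p, from the last intron bases before an exon of Erbb3, a receptor tyrosine kinase (hairpin at chr10:128584437-128584497, minus strand), had 40, 34, 63, 32 and 46 UMIs in TG Me-X04+ libraries. It had 17, 34, 14, 13 and 14 UMIs in TG Me-X04− libraries and 21, 15, 16, 23 and 32 in WT libraries. Apart from replicate 2 of TG Me-X04−, the TG groups did not overlap in UMIs. Normalised levels were 87.9 ± 20.1 CPM (UMI counts scaled to the library size multiplied by its TMM factor) in TG Me-X04+ cells and 40.2 ± 12.6 in TG Me-X04− cells (SD, n = 5 each), which gave a fitted log2 change of 1.10 (SE 0.25, edgeR adjusted p = 0.00549). The call held without any 1 library (0.91 to 1.30).

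miR-7083-5p, the 5p arm of the Dock6 hairpin shown above (chr9:21809975-21809995), had 28, 42, 104, 60 and 53 UMIs in TG Me-X04+ cells, 20, 38, 31, 28 and 16 in TG Me-X04− cells and 32, 11, 16, 32 and 33 in WT libraries. Its raw values overlapped between the groups, while its normalised levels were 109.4 ± 19.8 CPM in TG Me-X04+ cells and 58.4 ± 11.2 in TG Me-X04− cells (log2 fold change 0.90, SE 0.25, adjusted p = 0.0201). Leaving out replicate 3 or 4 of TG Me-X04+ or replicate 1, 3 or 5 of TG Me-X04− took the adjusted p to between 0.0531 and 0.0899, with log2 fold changes of 0.79 to 0.89.

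miR-7037-5p lies in an intron of Ints1, a subunit of the Integrator complex that cleaves nascent RNA (chr5:139767915-139767938, minus strand). Its values were 56, 31, 140, 35 and 50 UMIs in TG Me-X04+ cells, 19, 39, 36, 28 and 21 in TG Me-X04− cells and 19, 17, 33, 55 and 45 in WT libraries. Replicate 3 of TG Me-X04+ was the highest and the groups overlapped. The level was 118.4 ± 51.4 CPM in TG Me-X04+ cells and 62.8 ± 9.60 in TG Me-X04− cells (log2 fold change 0.91, SE 0.28, adjusted p = 0.0428). With the mouse as a block the value was 0.81 with an adjusted p of 0.0716, and the call was lost without replicate 1 or 3 of TG Me-X04+, any 1 of the TG Me-X04− libraries or replicate 3 of WT (0.66 to 0.94, adjusted p = 0.0553 to 0.237).

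miR-7063-3p, the last 20 bases of the Ap2a2 intron (chr7:141620772-141620791), had 31, 29, 88, 42 and 44 UMIs in TG Me-X04+ cells, 14, 29, 40, 24 and 13 in TG Me-X04− cells and 20, 17, 22, 21 and 26 in WT libraries. Its TG Me-X04+ values lay above every WT value. The normalised level was 89.6 ± 14.6 CPM in TG Me-X04+ cells and 52.3 ± 19.6 in TG Me-X04− cells (log2 fold change 0.77, SE 0.24, adjusted p = 0.0455). This call was close to the threshold: it was lost without any 1 library except replicate 3 of TG Me-X04− or replicate 2 of WT (0.63 to 0.82 where lost, adjusted p = 0.053 to 0.231).

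miR-7015-3p was the 1 member that fell, and the 5p arm of the same hairpin did not pass the test in this comparison. The hairpin arms span chr4:120973259-120973317 on the minus strand and end at the 3′ splice site of an intron of 1127 bases of Smap2, a GTPase-activating protein for Arf. The 3p arm had 12, 24, 11, 17 and 21 UMIs in TG Me-X04+ cells, 47, 59, 30, 45 and 47 in TG Me-X04− cells and 26, 43, 54, 48 and 125 in WT libraries. All TG Me-X04+ UMI values lay below all others, and after normalisation 1 of them, 63.1 CPM in replicate 2, lay just above the lowest TG Me-X04− value, 62.3 CPM in replicate 3. The normalised level was 37.2 ± 17.4 CPM in TG Me-X04+ cells and 103.9 ± 26.3 in TG Me-X04− cells, which gave a fitted log2 change of −1.52 (SE 0.33, adjusted p = 0.00363), and the call held without any 1 library (−1.79 to −1.29). With library size as the scaling it was −0.45 with an adjusted p of 0.239. The 5p arm had 19, 27, 67, 35 and 46 UMIs in TG Me-X04+ cells and 33, 49, 41, 28 and 41 in TG Me-X04− libraries, which overlapped, with a fitted log2 change of −0.20 (adjusted p = 0.997). Summed by group, the 5p arm had 194 UMIs in TG Me-X04+ cells, 192 in TG Me-X04− cells and 419 in WT, and the 3p arm 85, 228 and 296. The difference between the arms was not itself tested.

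The count of members called higher depended on single libraries and on the scaling. It was 1 without replicate 1 or 5 of TG Me-X04−, 2 without replicate 1, 3 or 4 of TG Me-X04+, replicate 2 or 4 of TG Me-X04− or replicate 3 of WT, and 7 without replicate 2 of WT. Without replicate 3 of TG Me-X04+ the share of all entries called higher also moved, to 0.542%, against 0.778% of members. For the other fits without 1 library the share of all entries is not given. With library size in place of TMM, which moved the median of all entries to 1.28 and that of the members to 1.40, 94 members (36.7%) and 33.7% of all entries were higher and no member was lower. After every library was scaled down to the smallest total, with the limit of 10 UMIs applied again, none of the 5 calls held (adjusted p = 0.0798 to 0.548). With the mouse as a block, miR-6905-5p (0.73, adjusted p = 0.0293), miR-6925-5p (1.08, adjusted p = 0.0106) and miR-7017-5p (0.80, adjusted p = 0.0211) were also called.

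**Figure D4:**
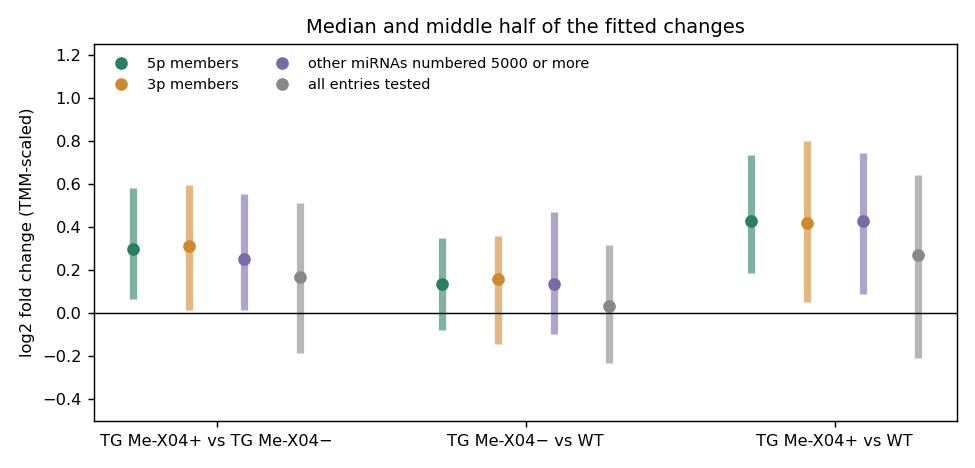
Median log2 fold change (points) and the range from the 25th to the 75th percentile (bars) of the 5p members, 3p members, late-numbered miRNAs and all entries tested, in each of the 3 comparisons. The medians of both arms lie above that of all entries in each comparison, and close to that of the late-numbered miRNAs.

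No member was called between TG Me-X04− and WT microglia. Among all entries tested, 0.139% were higher and 0% were lower. The lowest adjusted p of a member was 0.833, 3 members (1.17%) were at an unadjusted p under 0.05, 2 of them higher, against 54 of all 1435 entries (3.76%), 18 of them higher, and edgeR and DESeq2 both called 0. The median log2 fold change was 0.14 for the members and 0.03 for all entries. The 3p arm of miR-7015, which fell in TG Me-X04+ cells, had 103.9 ± 26.3 CPM in TG Me-X04− cells and 124.5 ± 43.4 in WT microglia. Its 5p arm was at a log2 fold change of −0.95 here, with an unadjusted p of 0.015 and an adjusted p of 0.844.

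In TG Me-X04+ against WT microglia, 13 members were higher, 11 of the 5p and 2 of the 3p arm, besides miR-6939-5p, and both arms of miR-7015 were lower. Among all entries tested 3.69% were higher and 11.7% were lower (15.4% in either direction), and among the late-numbered miRNAs that passed the filter 7 of 157 were higher and 1 was lower. The median log2 fold change was 0.43 for the members, 0.43 for the late-numbered miRNAs and 0.27 for all entries, with 215 of 256 members (84.0%) and 957 of 1435 entries (66.7%) above 0. miR-6939-5p also passed the thresholds but is left out of the 13, since it met the detection rule through the TG libraries alone and its difference from WT is not independent of the rule. This comparison shares its TG Me-X04+ libraries with the first one. The 3 members that rose in both were miR-6917-5p, miR-7083-5p and miR-7063-3p. Against WT, miR-6917-5p was at a log2 fold change of 0.86 (adjusted p = 0.0186, with 47.9 ± 7.69 CPM in WT), miR-7083-5p 0.98 (adjusted p = 0.00804, 55.7 ± 23.3 CPM in WT) and miR-7063-3p 0.90 (adjusted p = 0.0128, 48.8 ± 7.04 CPM in WT). The call of miR-6917-5p was lost without replicate 1 of TG Me-X04+ or replicate 3 of WT (0.73 to 0.79) and that of miR-7063-3p without replicate 3 of TG Me-X04+ (0.77, adjusted p = 0.075). miR-7037-5p had 0.68 and an adjusted p of 0.125.

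miR-6925-5p, from a hairpin across an exon boundary of the kinesin gene Kif1c (chr11:70705995-70706016, plus strand), had 35, 28, 77, 34 and 46 UMIs in TG Me-X04+ cells, 14, 28, 15, 15 and 18 in TG Me-X04− cells and 18, 0, 12, 16 and 23 in WT libraries. Every TG Me-X04+ value lay above every WT value. The level was 86.1 ± 15.6 CPM in TG Me-X04+ cells and 29.5 ± 18.6 in WT (log2 fold change 1.51, SE 0.39, adjusted p = 0.00927). On read counts in place of UMIs the value was 1.57 with an adjusted p of 0.276. Against TG Me-X04− the value was 1.11 with an adjusted p of 0.0765.

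miR-7051-5p, the most abundant 5p member, comes from an intron of Etfb, a subunit of the mitochondrial electron transfer flavoprotein (chr7:43457502-43457523, plus strand). Its values were 193, 87, 330, 122 and 133 UMIs in TG Me-X04+ cells, 40, 92, 118, 97 and 108 in TG Me-X04− cells and 77, 38, 85, 73 and 80 in WT libraries. Here too the TG Me-X04+ and WT values did not overlap. The level was 344.5 ± 153.6 CPM in TG Me-X04+ cells and 161.8 ± 46.5 in WT (log2 fold change 1.09, SE 0.29, adjusted p = 0.012). Without replicate 1 of TG Me-X04+ it was 0.83 with an adjusted p of 0.0527.

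miR-6995-3p, the second 3p member that rose, lies at the end of an intron of Sh3pxd2a, a scaffold protein of podosomes (chr19:47273519-47273539, minus strand). It had 24, 31, 64, 29 and 41 UMIs in TG Me-X04+ cells, 17, 29, 24, 13 and 22 in TG Me-X04− cells and 14, 11, 18, 15 and 19 in WT libraries. The TG Me-X04+ and WT groups did not overlap. The level was 73.9 ± 9.40 CPM in TG Me-X04+ cells and 35.2 ± 5.87 in WT (log2 fold change 1.08, SE 0.25, adjusted p = 0.00365), and the call held without any 1 library (1.00 to 1.16). On read counts in place of UMIs it was 0.80 with an adjusted p of 0.284.

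miR-6990-5p, from the gene of the nuclear receptor Esrra (chr19:6914261-6914281, minus strand), had 97, 50, 124, 66 and 53 UMIs in TG Me-X04+ cells, 37, 85, 65, 35 and 20 in TG Me-X04− cells and 22, 18, 36, 45 and 64 in WT libraries. The raw values of TG Me-X04+ and WT overlapped through replicate 5 of WT, the deepest library. The level was 162.6 ± 75.2 CPM in TG Me-X04+ cells and 78.6 ± 18.95 in WT (log2 fold change 1.01, SE 0.30, adjusted p = 0.0246), and the call was lost without replicate 1 of TG Me-X04+ or replicate 1 or 2 of WT (0.71 to 0.94).

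miR-6939-5p, from an intron of the kinase gene Akt1, was listed at 0 in all 5 WT libraries, the only member with a group at 0 throughout. It had 0, 12, 25, 10 and 10 UMIs in TG Me-X04+ cells and 0, 20, 14, 21 and 11 in TG Me-X04− libraries. Since a 0 can stand for up to 9 UMIs and the TG values above 0 were 10 to 25, no fold is given. As its detection came from the TG libraries alone, these values are a description and its test against WT is not used. The call was lost when each 0 was set to 9 UMIs (log2 fold change 0.37), and without replicate 2 or 3 of TG Me-X04+ or replicate 5 of WT.

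The other 6 members that rose were all of the 5p arm and had log2 fold changes of 0.71 to 0.96. They were miR-6905-5p (0.96, adjusted p = 0.00682), miR-6955-5p (0.88, adjusted p = 0.0245), miR-6960-5p (0.87, adjusted p = 0.00682), miR-7003-5p (0.76, adjusted p = 0.0495), miR-7080-5p (0.73, adjusted p = 0.0381) and miR-6973b-5p (0.71, adjusted p = 0.0286). miR-7080-5p starts with the first base of the Cpne7 intron shown above, and had 31, 39, 119, 66 and 96 UMIs in TG Me-X04+ cells, 28, 76, 60, 40 and 48 in TG Me-X04− cells and 36, 15, 33, 44 and 53 in WT libraries, which overlapped. miR-7003-5p and miR-6955-5p were among the 10 most abundant 5p members, and the call of miR-7003-5p was lost in 11 of the 15 fits that left out 1 library (all but those without replicate 1 or 2 of TG Me-X04+ or replicate 2 or 4 of TG Me-X04−; 0.56 to 0.80 where lost), and that of miR-6955-5p without replicate 1 or 3 of TG Me-X04+ or replicate 2, 4 or 5 of WT (0.62 to 0.86). The call of miR-6973b-5p was lost without replicate 3 or 5 of TG Me-X04+, replicate 3 of TG Me-X04− or replicate 2 or 5 of WT (0.59 to 0.69), and that of miR-7080-5p without replicate 3, 4 or 5 of TG Me-X04+, replicate 3 or 5 of TG Me-X04− or any WT library but replicate 1 (0.60 to 0.78). miR-6905-5p (0.81 to 1.04) and miR-6960-5p (0.75 to 0.97) kept their calls without any 1 library.

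Of the falling members, miR-7015-3p had 37.2 ± 17.4 CPM in TG Me-X04+ cells and 124.5 ± 43.4 in WT (log2 fold change −1.81, SE 0.32, adjusted p = 0.000382), and held without any 1 library (−2.07 to −1.57), and was −0.53 with an adjusted p of 0.138 under library size. The 5p arm had 38, 16, 34, 135 and 196 UMIs in WT libraries, so that 2 of the WT libraries were far above the rest, and its level was 73.9 ± 11.7 CPM in TG Me-X04+ cells and 162.9 ± 116.8 in WT (log2 fold change −1.15, SE 0.36, adjusted p = 0.0309). The same 2 WT libraries, replicates 4 and 5, had 0.422% to 0.487% of their reads on mRNA and 9.63% to 10.2% on other RNA classes, against 0.069% to 0.136% and 5.02% to 6.25% in the other 13 libraries. Their part in the result was not tested beyond leaving them out. The call was lost without replicate 4 or 5 of WT or replicate 1, 2 or 4 of TG Me-X04+ (−1.14 to −0.82, adjusted p = 0.0637 to 0.137). With library size as the scaling the value was 0.24, where the median of all entries was 1.65.

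**Figure D5:**
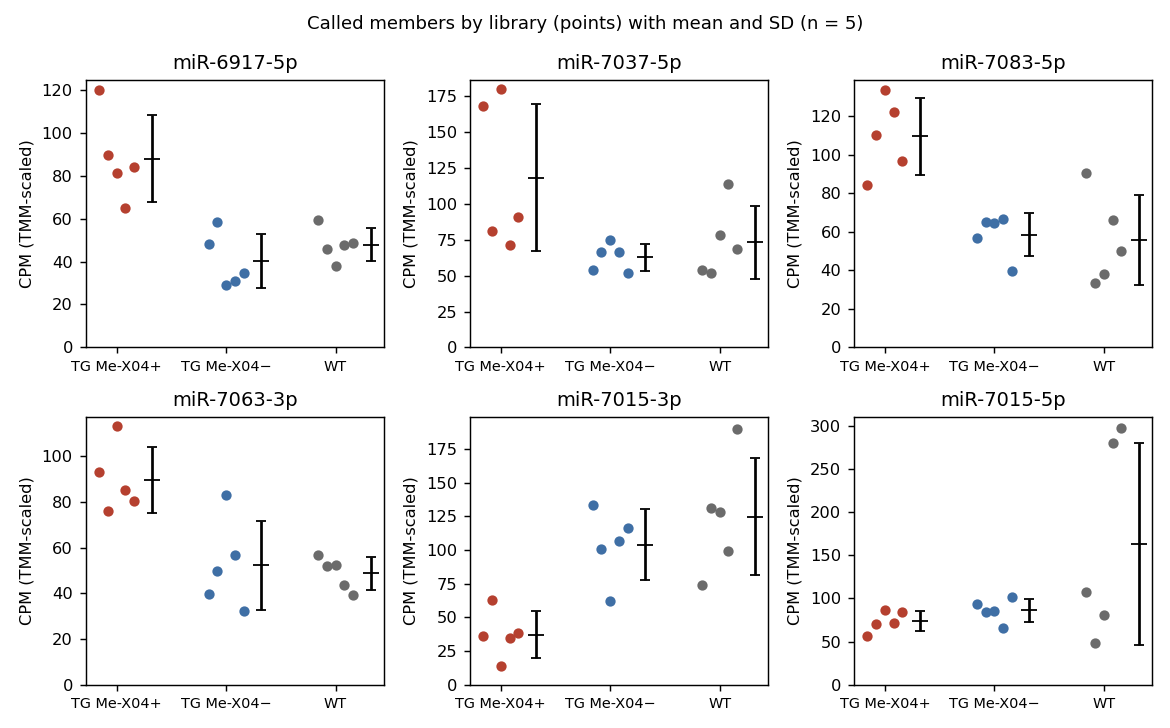
TMM-scaled CPM of 6 called members in each library (points), with the mean and SD of each group of 5 libraries beside them. miR-7015-3p averages 37.2 CPM in TG Me-X04+ cells, below 103.9 in TG Me-X04− cells and 124.5 in WT, and replicates 4 and 5 of WT stand apart for miR-7015-5p.

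With miR-6939-5p included, the count of members higher than in WT was 14. It was 8 without replicate 3 of TG Me-X04+ (3.11%, against 2.1% of all entries). Without replicate 2 of WT it was 9, for which the share of all entries is not given. With library size as the scaling it was 140 (54.7%), against 44.9% of all entries, with 0 lower members. miR-7069-3p, from an intron of Farsa, which encodes a subunit of phenylalanyl-tRNA synthetase (chr8:84867987-84868007, plus strand), had the highest total of all members. It had 119, 57, 374, 202 and 163 UMIs in TG Me-X04+ cells, 62, 257, 196, 79 and 128 in TG Me-X04− cells and 66, 63, 177, 206 and 280 in WT libraries, and all groups overlapped. Its levels were 339.2 ± 125.7 CPM in TG Me-X04+ cells, 305.4 ± 121.8 in TG Me-X04− cells and 330.4 ± 128.6 in WT, with log2 fold changes of 0.15 against TG Me-X04− and 0.04 against WT (adjusted p = 0.979 for WT). miR-6896-5p, from an intron of the cytoskeletal linker gene Dst and the second most abundant 5p member, had 264.7 ± 45.2 CPM in TG Me-X04+ cells, 172.0 ± 45.0 in TG Me-X04− cells and 172.4 ± 81.1 in WT and was not called. The other highest 5p members, miR-6963-5p, miR-6941-5p, miR-7068-5p, miR-6964-5p, miR-6915-5p and miR-6959-5p, and the 3p members miR-7055-3p, miR-7036a-3p and miR-6973a-3p were called in no comparison.

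Long-known mouse mirtrons outside the range gave a reference. miR-877 and miR-1224 come from whole introns of 85 bases, of Abcf1 and Vwa5b2. The gene models place the miR-702 hairpin of 109 bases across an exon boundary of Plod3, and its distance to splice sites was not measured. None of miR-877-5p, miR-877-3p, miR-1224-5p, miR-702-5p and miR-702-3p was called in any comparison. In TG Me-X04+ against TG Me-X04− their log2 fold changes were 0.59 (adjusted p = 0.138), −0.28, 0.25, 0.04 and −0.05, and against WT 0.48 (adjusted p = 0.225), −0.04, 0.39, 0.18 and −0.48, given in the same order.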

How the data were processed

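Small RNA libraries of sorted microglia were made with the QIAseq miRNA kit, and the authors trimmed, aligned and counted reads in the Qiagen Data Analysis Center. The deposited tables hold read counts and UMI counts per entry and library, not normalised, and list no UMI count from 1 to 9. Per the labels, the build was GRCm38 and edgeR 3.24.3 was among the tools. Total reads per library are given in the report; no separate sequencing batch is given in the sources used here. The other deposited columns of read counts served only for reads per UMI, the shares of read classes and 2 alternatives. One row that names no entry was dropped, and it holds a heading and no counts.

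The whole miRNA and piRNA table was tested with edgeR 4.0.16 (R 4.3.3): filterByExpr by group, TMM factors, a single quasi-likelihood fit of 15 libraries, Benjamini-Hochberg adjustment over 1435 entries, with calls made at the thresholds given in the report (0.05 and 0.7). The SE is the log2 fold change divided by the square root of F. DESeq2 1.42.0 was an alternative, and the fit was tested on simulated data. The labels give the TG libraries of 1 number the same mouse, and correlations of their deviations from the group mean were −0.171 to 0.249, against −0.265 to 0.272 for other TG pairs; the fit with the mouse as a block was an alternative. WT libraries share only numbers with the TG ones. P-values cover the spread between these libraries. A UMI value of 10 corresponded to 12.9 to 30.5 CPM.

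The members and lists were chosen with earlier results of these data known. Members named with values are those called (the 6 with the largest change each way in a comparison, others named after their values were seen), the 3 markers of the group (miR-6917-5p, miR-7037-5p and miR-7083-5p), the 10 highest 5p and 5 highest 3p, up to 6 either side of the threshold and 6 whose 0s differed most between groups (ties taken by total UMIs); hairpins with both arms are summarised. Hairpins were placed with RefSeq GRCm38.p6 and GENCODE vM21. Comparison lists hold miRNAs numbered 5000 or more outside the range, all other miRNAs, and those within the 5th to 95th percentile of member levels. Figures were drawn with matplotlib 3.10.9.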

Additional observations from a re-analysis of the deposited data

Results flagged for a closer look

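The gap of the highest or lowest library to the next was compared with Dixon's critical value in 104 groups of 5 libraries. These were the named members, and measures of whole libraries such as the member share and reads per UMI, in each of the 3 groups. By chance the critical value is passed in about 1 in 20 groups. It was passed in 7. Replicate 4 of TG Me-X04− had 30.8 CPM of miR-6995-3p, below 48.3 to 54.4 CPM in the others. Replicate 2 of WT had 88.4 CPM of miR-7003-5p, below 127.5 to 143.0 CPM. Replicate 2 of TG Me-X04− had 142.2 CPM of miR-7055-3p, above 96.5 to 101.9 CPM. Replicate 1 of TG Me-X04+ had 63.0 CPM of miR-7020-5p, above 36.8 to 42.7 CPM. The other 3 were single libraries above the listing limit in a group otherwise at 0. They were replicate 3 of TG Me-X04− for miR-7075-5p (35.3 CPM) and miR-7046-3p (22.8 CPM), and replicate 5 of WT for miR-7001-3p (21.3 CPM). In a group with only 1 library above 0 the gap always passes, whatever its value, so the chance rate does not apply to these 3.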

How the results depend on the processing

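Over the alternatives to the 16 calls of named members other than miR-6939-5p, 336 of 447 kept the call, 109 lost it and 2 reversed the direction. Both reversals were miR-7015-5p in TG Me-X04+ against WT, at 0.24 with library size and 0.18 with the totals of all RNA classes. On read counts the lost calls were miR-7037-5p and miR-7063-3p against TG Me-X04− and miR-7063-3p, miR-6925-5p, miR-6995-3p, miR-7015-5p, miR-7003-5p and miR-6955-5p against WT (adjusted p = 0.0581 to 0.284).

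Members higher in TG Me-X04+ cells than in Me-X04− cells of TG mice were 4 (1.56%, against 1.39% of all entries). They were 94 with library size (36.7% against 33.7%) and 85 with the totals of all RNA classes (33.3% against 29.4%). With each 0 set to 9 UMIs they were 10 (3.88% against 2.06%), and 16 after scaling to the smallest total (8.99% against 7.05%). They were 17 with at least 10 UMIs in every library, 9 with DESeq2 and 2 on read counts, where shares of all entries are not given here. The number was 1 at an adjusted p under 0.01 and a log2 fold change of 1.0, and 1 to 7 without 1 library. Lower members were 1, and 0 with library size, the totals of all RNA classes and scaling, and 1 to 1 without 1 library. Between TG Me-X04− and WT 0 were called in each, in either direction (0 to 0 without 1 library).

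Members higher in TG Me-X04+ than in WT were 13 without miR-6939-5p, whose test against WT is not used. The alternatives were counted over all members without leaving it out, so their reference is 14 (5.47%, against 3.69% of all entries). They were 140 with library size (54.7% against 44.9%) and 140 with the totals of all RNA classes (54.9% against 45%). After scaling they were 57 (32% against 24.5%). They were 26 with at least 10 UMIs in every library, 7 on read counts, 7 with a replicate block and 2 at the stricter threshold. The number was 9 with a covariate for runs of neighbouring mouse numbers, and 8 to 14 without 1 library. From the count with at least 10 UMIs in every library on, the share of all entries is given only without replicate 3 of TG Me-X04+. There it was 3.11% of members against 2.1%. The other counts therefore cannot be set against the background. Lower members were 2, and 0 with library size, 0 with the totals of all RNA classes, 1 each on read counts, with a replicate block, in a fit of these groups alone, at the stricter threshold, after scaling and with that covariate, and 1 to 2 without 1 library. Between the TG groups the replicate block, by mouse, moved only the calls given in the report; with it 6 members were higher than in TG Me-X04−, against 21 of 1298 entries (1.62%). WT shares only numbers with the TG mice.

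The number of members was 73 of the 5p and 28 of the 3p arm when all 15 libraries were required, and 84 and 29 after scaling. The causes of these differences were not tested. Many member values lie within a few UMIs of the limit, so differences under the limit were not detectable at this depth.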
